A study of Mus musculus with 24 samples.

Results

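The genes described here encode sugar carriers, hexokinases that phosphorylate glucose, and arrestin-domain proteins, of which Txnip restrains glucose uptake. The set held 9 genes, taken by symbol from the 41444 genes listed in each of the study's 4 tables: the facilitative transporters Slc2a1, Slc2a3 and Slc2a6, the sodium-coupled transporter Slc5a9, the hexokinases Hk1, Hk2 and Hk3, and the arrestin-domain genes Txnip and Arrdc4. Of these, 8 had values and 7 were abundant enough to be tested. Hk3 lay between -0.13 and -0.02 in all 24 libraries, and Arrdc4 was listed at 0 in each.

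The 24 libraries, in 8 groups of 3, were made from mouse B-ALL cells (acute lymphoblastic leukemia of the B lineage) labelled as bone marrow. All cells were BCR-ABL1+ and Foxo1 fl/fl, and all carried Cre-ERT2, a Cre fused to a modified estrogen receptor that 4-hydroxytamoxifen (4-OHT) switches on. Cells received 200 nM 4-OHT or its vehicle ethanol (EtOH) for 48 h or 24 h, or 70 nM AS1842856 or its vehicle DMSO for 48 h or 24 h. AS1842856 is a small molecule that the series title presents as an inhibitor of FOXO1 and of the kinase GSK3. Cells without Cre-ERT2 that received 4-OHT were not analysed here, so an effect of 4-OHT or of Cre activity and an effect of Foxo1 loss cannot be told apart. The labels do not say how many clones or cultures the cells came from, and p-values therefore describe the spread among the 3 libraries of a group, part or all of which may be technical.

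Glucose enters most cells through the GLUT carriers, which the Slc2a genes encode, and hexokinases trap it inside by adding a phosphate. Txnip, the thioredoxin-interacting protein, is an alpha-arrestin that removes GLUT1 from the cell surface, and its gene is induced when glucose metabolites activate the transcription factors MondoA (Mlxip) and ChREBP (Mlxipl). In human precursor-B leukemia, B-lineage transcription factors such as PAX5 and IKZF1 are known to restrict glucose uptake, with TXNIP among the genes they induce.

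Values are the authors' library-normalised log2 values and a difference is the treated mean minus the vehicle mean on that scale, with its standard error (SE), n = 3 libraries in each group. Read counts were not used, so depth is unknown. Differences were tested with limma over 11470 genes, and a gene passed at a Benjamini-Hochberg adjusted p under 0.05. For genes called in both tests, library differences ran at a median of 0.649 to 0.656 times the authors' deposited log2 fold changes, so folds are taken from the authors' deposited tables. Values were not divided by transcript length, so levels are compared between groups and not between genes.

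Foxo1, the targeted gene, measured 8.16, 8.02 and 8.12 in 4-OHT libraries at 48 h, against 10.02, 10.11 and 10.07 in EtOH libraries. At 24 h it measured 8.18, 8.27 and 7.99 in 4-OHT libraries and 9.88, 9.84 and 9.8 in EtOH libraries. The libraries followed their labels at both times. In the AS1842856 arm at 48 h Foxo1 measured 9.35, 9.15 and 9.05, against 9.69, 9.4 and 9.34 in DMSO. All 12 B-lineage markers looked up were abundant enough to test, Cd79a lying between 13.63 and 14.42 in all libraries. Of 12 myeloid markers 3 were abundant enough to test, and Elane, S100a8 and S100a9 were listed at 0. Whether a listed 0 means no reads cannot be told from the values, for any of the marker genes. None of 10 T and NK cell markers was abundant enough to test. Of 10 erythroid markers Tfrc alone was tested, and the globin genes were listed at 0. Tfrc lay between 12.55 and 13.95 in all libraries. With 4-OHT its difference was -0.4 at 24 h, which passed, and -0.08 at 48 h, which did not. With AS1842856 it was 0.57 at 48 h and 0.16 at 24 h, and neither passed. Of 10 stromal and endothelial markers Pecam1 alone was tested, and it rose with 4-OHT by 1.26 ± 0.05 at 48 h and by 0.59 ± 0.04 at 24 h. Among the 12 B-lineage markers 7 rose and 3 fell with 4-OHT at 48 h, where 25.0% of all tested genes rose and 25.8% fell. With AS1842856 at 48 h 0 rose and 5 fell, where 1.88% of all tested genes rose and 2.97% fell. At 24 h of 4-OHT 3 rose and 5 fell, where 15.7% of all tested genes rose and 13.7% fell. Summed after back-transformation from log2, the B-lineage marker values at 48 h were 103625 to 108706 in 4-OHT libraries, against 83322 to 90397 in EtOH libraries. They were 86071 to 96412 in AS1842856 libraries at 48 h, against 96636 to 108991 in DMSO libraries. The part of these marker changes in the results below was not tested.

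Some libraries of the AS1842856 arm stood apart in these genes. At 24 h, AS1842856 replicate 3 and DMSO replicate 2 were the highest of their groups for Slc2a1, Hk1, Slc2a6, Slc2a3 and Txnip. At 48 h, DMSO replicate 1 was the highest of its group for Txnip and the lowest for Hk2. In the AS1842856 arm at 48 h, libraries with the same replicate number deviated together (r = 0.41, 0.25 and 0.15 for replicates 1, 2 and 3). Replicates 2 and 3 also deviated with each other across the groups (r = 0.18 and 0.11). Fits that block on the number are added there if a call changes.

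**Figure D1:**
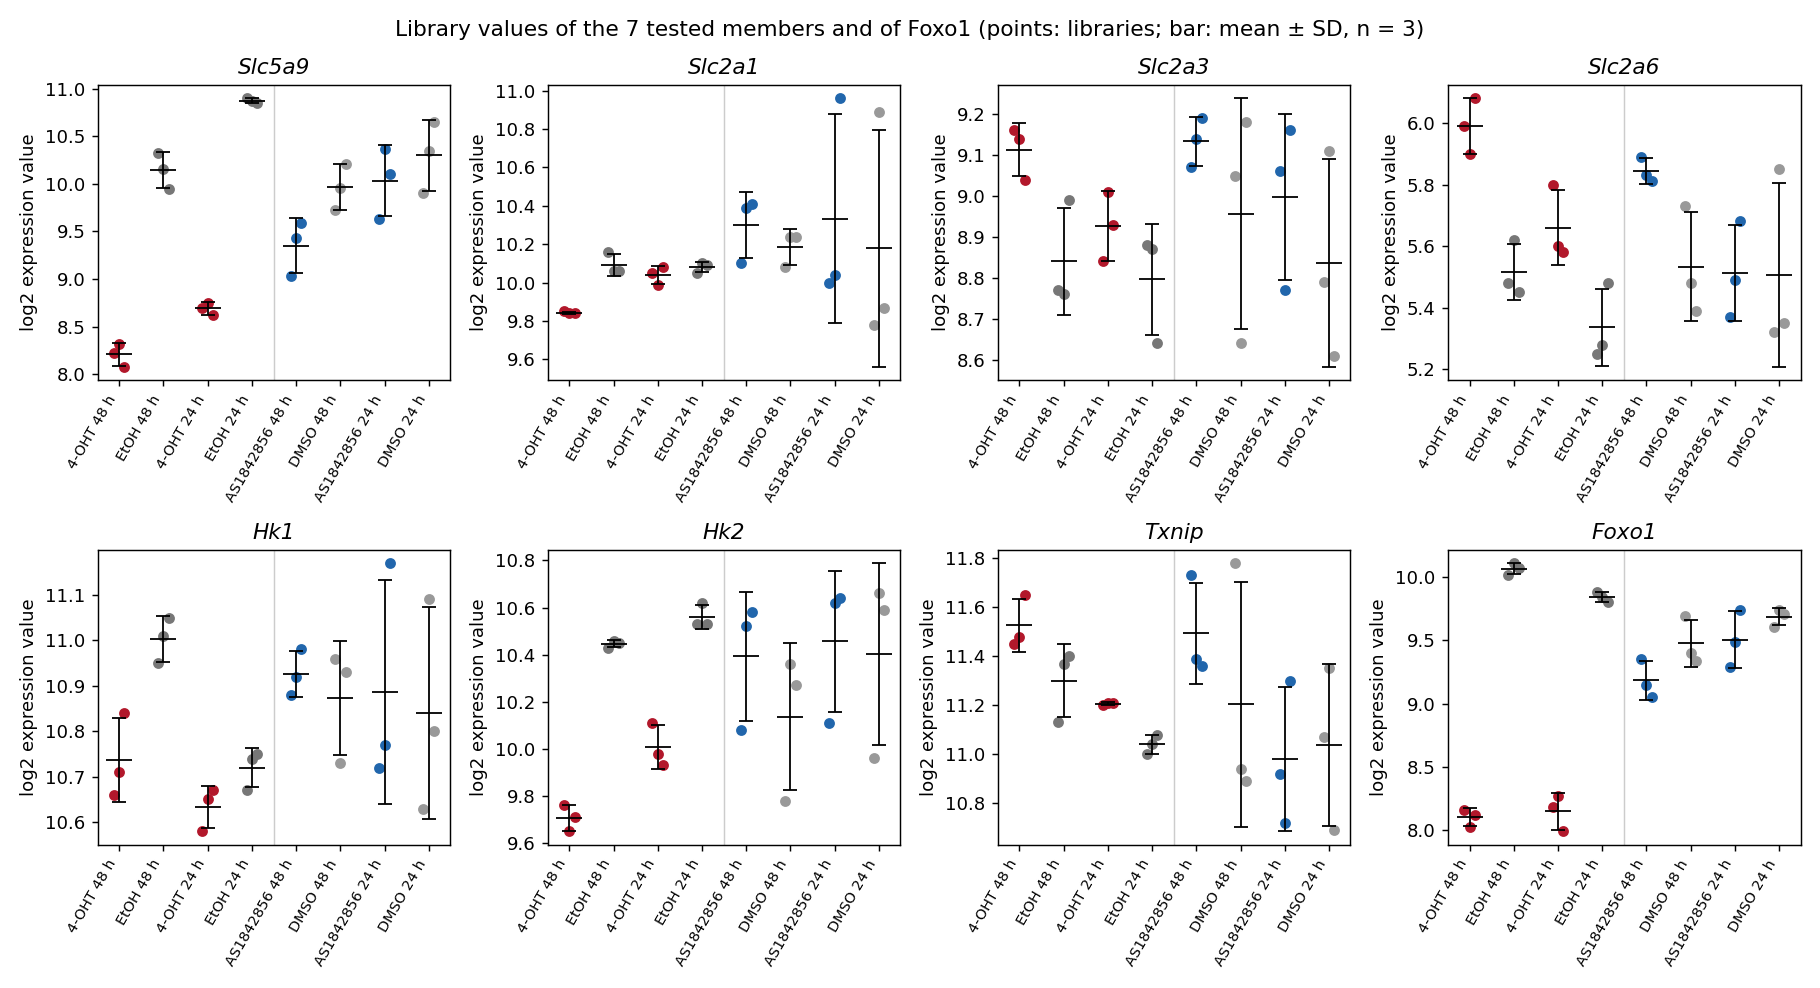
Log2 expression value of each library (points, replicates 1 to 3 from left to right) with the group mean and SD (n = 3), for the 7 tested genes and Foxo1, on a separate axis for each gene. Slc5a9 and Hk2 are lower in the 4-OHT groups than in EtOH at each time, while the AS1842856 and DMSO groups at 24 h overlap for every gene shown.

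Slc5a9 encodes the sodium-coupled sugar carrier SGLT4, known in other settings for mannose and fructose transport. Of the 7 tested genes it moved the furthest. In the annotation of GRCm38 (mm10) it lies on chromosome 4, 111875375 to 111902918, minus strand (ENSMUSG00000028544, protein-coding). Slc5a9 measured 8.22, 8.32 and 8.08 in 4-OHT libraries at 48 h, against 10.33, 10.16 and 9.95 in EtOH libraries. The 24 h values were 8.7, 8.75 and 8.62 in 4-OHT libraries, against 10.9, 10.87 and 10.85 in EtOH libraries. Every 4-OHT library was below every EtOH library at both times. It fell by 1.94 ± 0.1 at 48 h (limma, adjusted p = 1.22e-06) and fell by 2.18 ± 0.04 at 24 h (limma, adjusted p = 1.23e-07). Ordered by its difference among 11470 genes, it ranked 9 from the lowest at 48 h and 5 from the lowest at 24 h. In the authors' deposited tables its level was 0.135-fold of EtOH at 48 h and 0.133-fold at 24 h.

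AS1842856 moved Slc5a9 less. It measured 9.03, 9.43 and 9.59 in AS1842856 libraries at 48 h, against 9.73, 9.96 and 10.21 in DMSO libraries, with no overlap between the groups. The difference of -0.61 ± 0.16 did not pass (limma, adjusted p = 0.0826, 95% interval -1 to -0.23). Blocking on the replicate number narrowed its SE to 0.05, and it passed (limma, adjusted p = 0.00161). Without DMSO replicate 1 it was -0.73 and also passed (limma, adjusted p = 0.0411), the only 1 of 6 fits leaving out 1 library in which it did (limma, adjusted p up to 0.209). In the authors' deposited table it passed as well, at 0.573-fold of DMSO (adjusted p = 0.00769). At 24 h, AS1842856 libraries held 9.63, 10.37 and 10.1 and DMSO libraries 9.9, 10.35 and 10.65, which overlapped (difference -0.27, 95% interval -0.78 to 0.25).

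Slc2a1 encodes GLUT1, the broadly expressed glucose carrier (ENSMUSG00000028645, GRCm38 chromosome 4, 119108711 to 119137983, plus strand, protein-coding). It was lower after 48 h of 4-OHT, by a small amount, while the groups overlapped at 24 h. At 48 h it measured 9.85, 9.84 and 9.84 in 4-OHT libraries, against 10.16, 10.06 and 10.06 in EtOH libraries. The groups did not overlap, and it fell by 0.25 ± 0.04 (limma, adjusted p = 0.00121). The authors' deposited table gave 0.818-fold of EtOH and did not call it (adjusted p = 0.45). At 24 h the 4-OHT libraries held 10.05, 9.99 and 10.08 and the EtOH libraries 10.05, 10.1 and 10.09. These overlapped (difference -0.03 ± 0.04, limma, adjusted p = 0.551).

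In the AS1842856 arm Slc2a1 varied more between libraries of a group than between groups. At 48 h it measured 10.1, 10.39 and 10.41 with AS1842856 and 10.08, 10.24 and 10.24 with DMSO (difference 0.12 ± 0.09). At 24 h it measured 10, 10.04 and 10.96 with AS1842856 and 9.78, 10.89 and 9.87 with DMSO. There the 2 libraries that stood apart lay about 1 log2 unit above the rest of their groups, and the difference had a 95% interval of -0.63 to 0.94. Without these 2 libraries it was 0.19 ± 0.08 (limma, adjusted p = 0.673).

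Slc2a3 encodes GLUT3, a high-affinity carrier (ENSMUSG00000003153, GRCm38 chromosome 6, 122727809 to 122801640, minus strand, protein-coding), and Slc2a6 encodes GLUT6, which in mouse macrophages is known as an intracellular carrier. Both were higher after 48 h of 4-OHT, in contrast to Slc2a1. Slc2a3 measured 9.16, 9.14 and 9.04 in 4-OHT libraries, against 8.77, 8.76 and 8.99 in EtOH libraries. The nearest libraries of the groups almost touched, and it rose by 0.27 ± 0.07 (limma, adjusted p = 0.0119). The authors' deposited table gave 1.31-fold of EtOH and did not call it (adjusted p = 0.104). At 24 h Slc2a3 was 8.84, 9.01 and 8.93 with 4-OHT and 8.88, 8.87 and 8.64 with EtOH, which overlapped (limma, adjusted p = 0.239).

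Slc2a6 (ENSMUSG00000036067, GRCm38 chromosome 2, 27021363 to 27027998, minus strand, protein-coding) measured 5.99, 5.9 and 6.08 in 4-OHT libraries at 48 h, against 5.48, 5.62 and 5.45 in EtOH libraries. At 24 h it measured 5.8, 5.6 and 5.58 with 4-OHT and 5.25, 5.28 and 5.48 with EtOH. The groups did not overlap at either time. It rose by 0.47 ± 0.08 at 48 h (limma, adjusted p = 0.0015), and the authors' deposited table gave 1.88-fold. The rise at 24 h was 0.32 ± 0.09 (limma, adjusted p = 0.034), with 1.66-fold in the authors' deposited table. This 24 h call held in 2 of 6 fits that each left out 1 library: it was lost without 4-OHT replicate 1 (0.0944), 4-OHT replicate 2 (0.0611), EtOH replicate 1 (0.107) or EtOH replicate 2 (0.1), the limma adjusted p being given for each. With AS1842856 at 48 h Slc2a6 measured 5.89, 5.83 and 5.81, against 5.73, 5.48 and 5.39 with DMSO. These did not overlap either, but the difference of 0.31 ± 0.1 did not pass (limma, adjusted p = 0.145). Without DMSO replicate 1 it was 0.41 and passed (limma, adjusted p = 0.0396), the only 1 of 6 fits leaving out 1 library in which it did (limma, adjusted p up to 0.339). The 3 myeloid markers that could be tested, Lyz2, Csf1r and Cx3cr1, rose with 4-OHT at both times, Lyz2 by 0.84 ± 0.11 at 48 h and by 0.86 ± 0.1 at 24 h. Their summed linear level was 209 to 238 with 4-OHT and 110 to 138 with EtOH at 48 h, 187 to 201 with 4-OHT and 100 to 121 with EtOH at 24 h, and 91 to 103 with AS1842856 and 82 to 102 with DMSO at 48 h. Their part in the transporter differences was not tested.

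Hk2 encodes the inducible, mitochondrion-binding hexokinase (ENSMUSG00000000628, GRCm38 chromosome 6, 82725025 to 82774454, minus strand, protein-coding). Among the glucose-phosphorylating members it had the largest fall with 4-OHT. Hk2 measured 9.76, 9.65 and 9.71 in 4-OHT libraries at 48 h, against 10.43, 10.46 and 10.45 in EtOH libraries. Its 24 h values were 10.11, 9.98 and 9.93 with 4-OHT and 10.53, 10.62 and 10.53 with EtOH. The groups did not overlap at either time. Hk2 fell by 0.74 ± 0.04 at 48 h (limma, adjusted p = 1.83e-06), and the authors' deposited table gave 0.494-fold of EtOH. It fell by 0.55 ± 0.05 at 24 h (limma, adjusted p = 1.96e-04), with 0.6-fold in the authors' deposited table.

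With AS1842856, the mean Hk2 value was above that with DMSO. The values were 10.08, 10.52 and 10.58 with AS1842856 at 48 h and 9.78, 10.36 and 10.27 with DMSO. In each replicate number the AS1842856 library was above its DMSO counterpart, and replicate 1 was the lowest of both groups. The difference of 0.26 ± 0.18 did not pass (limma, adjusted p = 0.462) but passed as a rise when blocked on the replicate number, with an SE of 0.05 (limma, adjusted p = 0.0171). The authors' deposited table gave 1.26-fold of DMSO (adjusted p = 0.367). At 24 h Hk2 was 10.11, 10.62 and 10.64 with AS1842856 and 9.96, 10.66 and 10.59 with DMSO, again with replicate 1 lowest in both groups.

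Hk1 encodes the constitutive hexokinase (ENSMUSG00000037012, GRCm38 chromosome 10, 62268855 to 62379908, minus strand, protein-coding). It measured 10.66, 10.71 and 10.84 in 4-OHT libraries at 48 h, against 10.95, 11.01 and 11.05 in EtOH libraries, without overlap. It fell by 0.27 ± 0.05 (limma, adjusted p = 0.00249), with 0.766-fold of EtOH in the authors' deposited table. At 24 h it was 10.58, 10.65 and 10.67 with 4-OHT and 10.67, 10.74 and 10.75 with EtOH (limma, adjusted p = 0.143). Its AS1842856 values overlapped DMSO at both times, with differences of 0.05 ± 0.07 at 48 h and 0.05 ± 0.15 at 24 h. The antisense gene Hk1os overlaps Hk1, and since the strand setting of the counting is not given in the sources used here, their reads cannot be told apart. Hk3, the hexokinase of myeloid cells, was below the limit for testing.

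Txnip (ENSMUSG00000038393, GRCm38 chromosome 3, 96557957 to 96561883, plus strand, a protein-coding gene) was higher with 4-OHT at both times, by less than any transporter or hexokinase that passed at the same time. At 48 h it measured 11.45, 11.48 and 11.65 in 4-OHT libraries, against 11.13, 11.37 and 11.4 in EtOH libraries. At 24 h the 4-OHT libraries held 11.2, 11.21 and 11.21 and the EtOH libraries 11, 11.04 and 11.08. The groups did not overlap at either time. Txnip rose by 0.16 ± 0.03 at 24 h (limma, adjusted p = 0.0074) and by 0.22 ± 0.08 at 48 h (limma, adjusted p = 0.0349). The 48 h call was lost without 4-OHT replicate 2 (0.0511), 4-OHT replicate 3 (0.116) or EtOH replicate 1 (0.0913), again as limma adjusted p. The authors' deposited tables gave 1.2-fold at 48 h and 1.14-fold at 24 h and called neither (adjusted p = 0.486 and 0.668). An antisense gene, Gm15441, overlaps Txnip at a low level.

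With AS1842856 at 48 h, Txnip measured 11.73, 11.39 and 11.36, against 11.78, 10.94 and 10.89 with DMSO. In 2 of 3 replicate numbers the AS1842856 library was the higher, and DMSO replicate 1 was the highest library of all. The difference of 0.29 ± 0.23 did not pass (limma, adjusted p = 0.535). Without DMSO replicate 1 it was 0.57 and passed (limma, adjusted p = 0.0289). This was the only 1 of 6 fits leaving out 1 library in which Txnip passed. Over the 6 fits its difference ran from 0.13 to 0.57 (limma, adjusted p up to 0.836). At 24 h Txnip was 10.92, 10.72 and 11.3 with AS1842856 and 11.07, 11.35 and 10.69 with DMSO, which overlapped. Arrdc4, the closest relative of Txnip, was listed at 0 in all 24 libraries. Since 20000 genes, a round number, have values in the tables, it cannot be told from them whether this 0 means no reads or a limit on the genes given values.

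**Figure D2:**
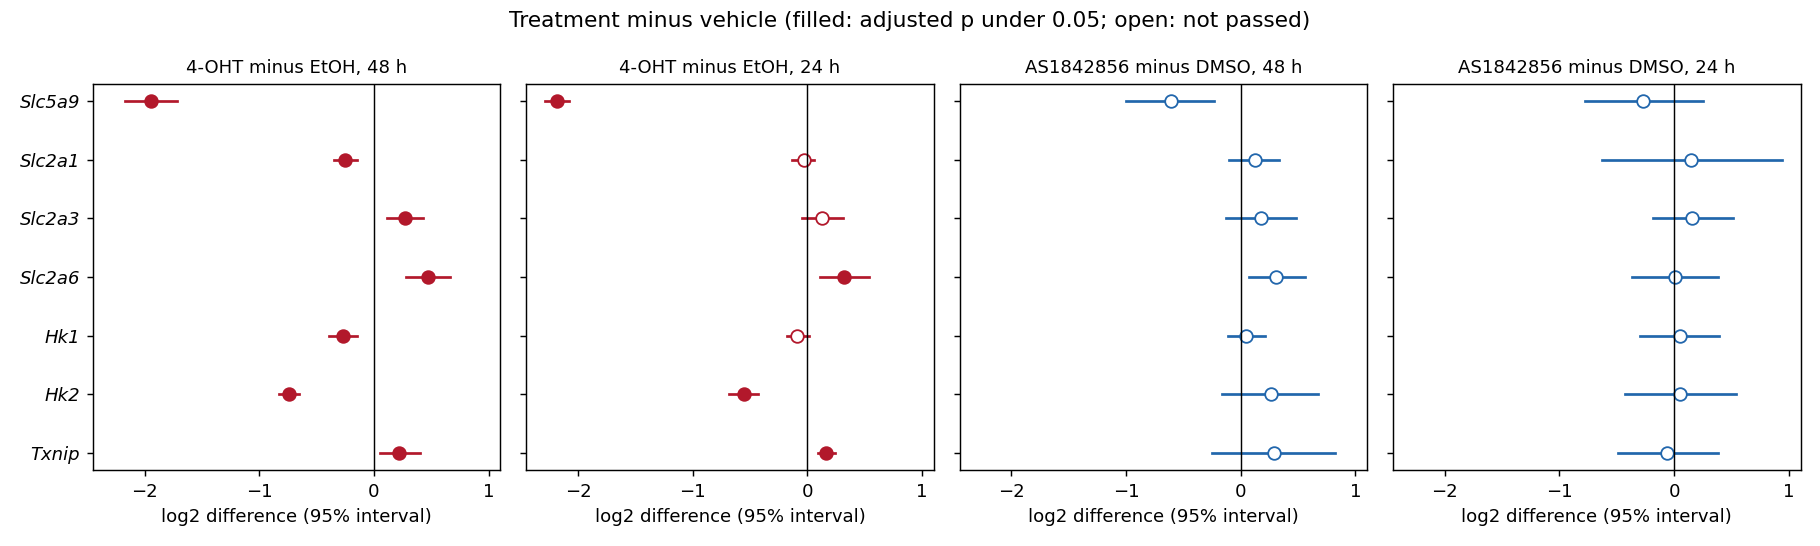
Difference in log2 value between treated and vehicle libraries (points) with its 95% interval (lines) for the 7 tested genes in 4 comparisons, filled where the adjusted p was under 0.05. After 48 h of 4-OHT all 7 points are filled, with Slc5a9 at -1.94, and no point is filled for AS1842856 at either time.

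Over the set, 7 of 7 tested genes passed after 48 h of 4-OHT, 3 higher and 4 lower, where 50.8% of all tested genes passed. Their library ranges did not overlap in 7 of 7, against 59.8% of all tested genes. In 1 model of all 8 groups Slc5a9, Hk2, Hk1 and Slc2a6 passed. Of the 8 set genes it adjusted, which include Hk3, the authors' deposited test called 4 (Slc5a9, Hk2, Hk1 and Slc2a6), where it called 36.1% of all genes it adjusted. After 24 h, 4 of 7 passed, Slc2a6 and Txnip higher and Slc5a9 and Hk2 lower, where 29.5% of all tested genes passed, and Slc5a9 and Hk2 passed in 1 model of all 8 groups. The authors' deposited test called 3 of these (Slc5a9, Hk2 and Slc2a6), where it called 19.5%. With AS1842856 at 48 h 0 of 7 passed, where 4.86% of all tested genes passed in limma and 2396 genes had an unadjusted p under 0.05. With the replicate block there 2 of 7 passed, Slc5a9 lower and Hk2 higher, against 14.2% of all genes, and the authors' deposited test called Slc5a9, where it called 12.6% of the genes it adjusted. With AS1842856 at 24 h 0 of 7 passed in limma, which called 1 gene in all, or 0.00872%, with 232 genes at an unadjusted p under 0.05. The authors' deposited test also called 0 of 7 there and 0.130% of the genes it adjusted. On data simulated with the spread of that comparison, limma recovered 86% of genes changed by 1 log2 unit. Of those changed by 0.5 it recovered 50%. The simulation planted many changed genes and drew each gene independently, while some real libraries there stood apart in several genes together. The SE there ran from 0.15 for Hk1 to 0.34 for Slc2a1. These shares may therefore be too high for the 7 genes, and what the 0 of 7 could have missed was not tested.

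The promoters of Txnip, Hk2 and Slc2a1 are printed to show the letters at the start of the arrestin gene, of the inducible hexokinase and of the GLUT1 gene. The sequences are from RefSeq (build GRCm38.p6), run 5′ to 3′ on the gene's strand, and cover 250 bases before and 50 bases after the start. Of the 9 genes 7 matched the table. Capitals mark matches on either strand to the FOXO motif GTAAACA, the E-box CACGTG, the carbohydrate response form (CACGNG, then 5 bases of any kind, then CNCGNG), and the hypoxia response core ACGTG, which the E-box contains on both strands.
Txnip, chr3:96557707-96558006, plus strand: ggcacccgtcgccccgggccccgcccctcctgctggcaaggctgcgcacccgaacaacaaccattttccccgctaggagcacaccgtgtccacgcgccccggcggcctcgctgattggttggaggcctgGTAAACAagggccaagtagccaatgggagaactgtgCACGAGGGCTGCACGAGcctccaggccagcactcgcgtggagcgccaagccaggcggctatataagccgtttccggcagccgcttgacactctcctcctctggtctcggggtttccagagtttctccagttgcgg
Hk2, chr6:82774405-82774704, minus strand: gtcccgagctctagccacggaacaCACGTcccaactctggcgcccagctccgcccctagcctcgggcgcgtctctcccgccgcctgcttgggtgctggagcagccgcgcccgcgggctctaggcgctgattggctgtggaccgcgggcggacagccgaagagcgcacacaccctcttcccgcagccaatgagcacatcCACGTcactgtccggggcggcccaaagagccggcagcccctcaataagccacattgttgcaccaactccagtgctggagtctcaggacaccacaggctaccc
Slc2a1, chr4:119108495-119108794, plus strand: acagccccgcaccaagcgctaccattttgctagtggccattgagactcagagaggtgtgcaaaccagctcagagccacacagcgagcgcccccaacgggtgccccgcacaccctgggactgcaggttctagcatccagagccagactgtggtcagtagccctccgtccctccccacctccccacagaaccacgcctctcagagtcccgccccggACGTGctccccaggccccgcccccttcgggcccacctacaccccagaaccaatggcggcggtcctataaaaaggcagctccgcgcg

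The Txnip window held the FOXO motif at bases -121 to -115 and the carbohydrate response form, as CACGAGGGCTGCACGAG, at bases -85 to -69, counted from the start. Of 32851 RefSeq promoters of this length 3.65% held the FOXO motif and 0.365% the carbohydrate response form. The hypoxia core, present in 19.6% of promoters, stood at 2 places in Hk2, 1 in Slc2a1, 2 in 1 of the 2 Hk1 windows, 1 in Hk3 and, inside the E-box, 2 in Arrdc4. The E-box was found in Arrdc4, the gene listed at 0, and is present in 7.15% of promoters. A match of letters is a description of the sequence and shows no binding.

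The 48 h and 24 h libraries were also compared within each treatment. These comparisons share libraries with those above. From 24 h to 48 h in 4-OHT, 5 of 7 genes changed, where 22.3% of all tested genes did. In 1 model of all 8 groups 0 of these 5 passed (limma, adjusted p from 0.0851 to 0.601). Slc5a9 fell by 0.48 ± 0.07, Hk2 fell by 0.3 ± 0.06 and Slc2a1 fell by 0.2 ± 0.04, while Txnip rose by 0.32 ± 0.05 and Slc2a6 rose by 0.33 ± 0.09 (limma, adjusted p from 0.00357 to 0.0301). The Slc2a6 call was lost in 4 of 6 fits that left out 1 library: 4-OHT at 24 h replicate 2 (0.0928) or 3 (0.0798), or 4-OHT at 48 h replicate 1 (0.0746) or 3 (0.1), as limma adjusted p.

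In EtOH, 3 of 7 changed with time, where 25.4% of all tested genes did, and Slc5a9 alone passed in 1 model of all 8 groups. Slc5a9 fell by 0.73 ± 0.08 (limma, adjusted p = 0.00145), Hk1 rose by 0.28 ± 0.04 (limma, adjusted p = 0.00243) and Txnip rose by 0.26 ± 0.07 (limma, adjusted p = 0.0235). The Txnip call was lost without EtOH at 24 h replicate 1 (0.0742) or 2 (0.0621), or EtOH at 48 h replicate 2 (0.0789) or 3 (0.0744), as limma adjusted p. In AS1842856 0 of 7 passed, where 0.401% of all tested genes did in limma and 2089 had an unadjusted p under 0.05. Slc5a9 differed by -0.68 ± 0.2, Txnip by 0.51 ± 0.15 and Slc2a6 by 0.33, each without overlap between times. Without AS1842856 at 24 h replicate 3, Txnip differed by 0.67 and passed (limma, adjusted p = 0.0386), the only 1 of 6 fits leaving out 1 library in which it did (limma, adjusted p up to 0.435). In DMSO 0 of 7 passed, where 0.00872% of all tested genes did in limma and 1169 had an unadjusted p under 0.05. Slc5a9 there differed by -0.33.

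**Figure D3:**
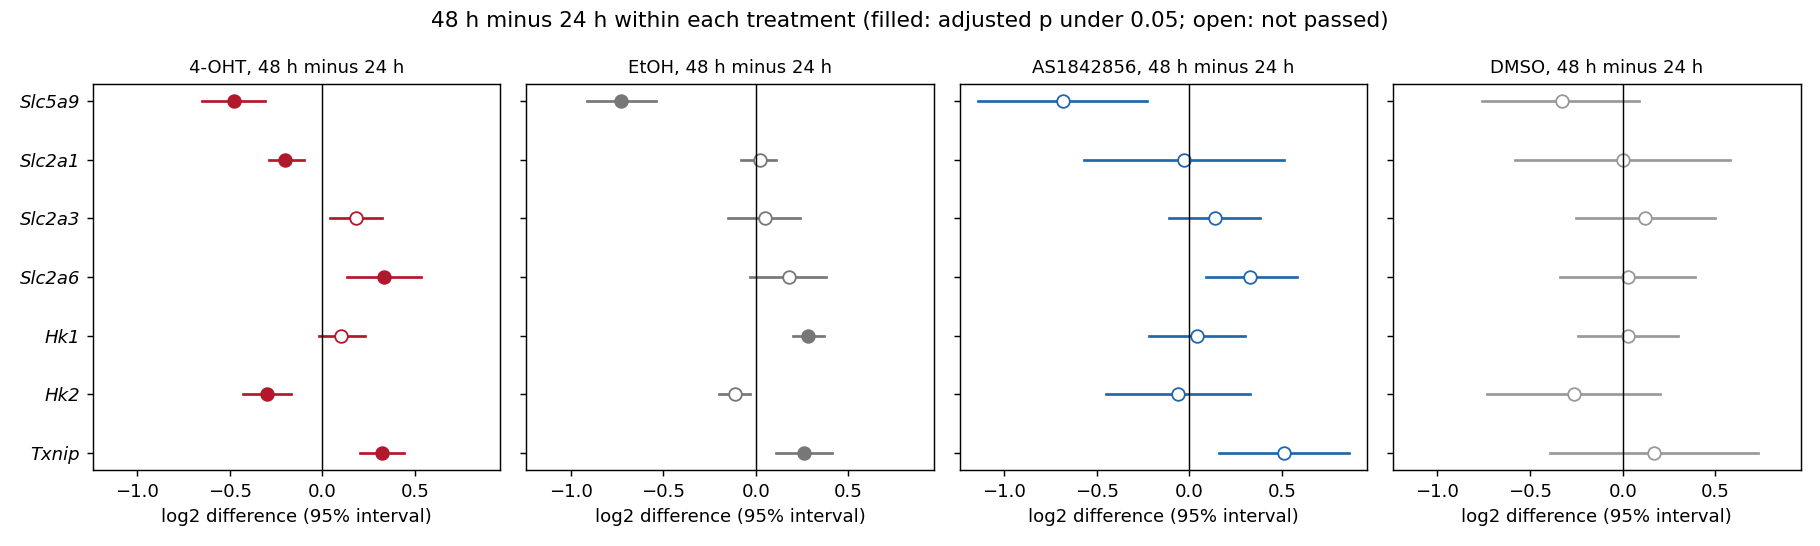
Difference in log2 value between 48 h and 24 h within each treatment (points) with its 95% interval (lines), filled where the adjusted p was under 0.05. Slc5a9 lies below 0 and Txnip above 0 in all 4 treatments, filled in 4-OHT and EtOH.

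Whether the response to 4-OHT itself differed between times was tested as a contrast. Slc2a1 was the 1 gene of 7 to pass, where 15.6% of all tested genes did: its response at 48 h minus that at 24 h was -0.21 ± 0.06 (limma, adjusted p = 0.0204). This call was lost without EtOH at 24 h replicate 1 (limma, adjusted p = 0.0531) and in 1 model of all 8 groups. For Slc5a9 the contrast was 0.24 ± 0.12 (limma, adjusted p = 0.189), and for Hk2 it was -0.19 (limma, adjusted p = 0.0819). For AS1842856 0 of 7 passed in limma, where 0.00872% of all tested genes did and 443 had an unadjusted p under 0.05.

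The AS1842856 and 4-OHT responses were compared with each other, each against its own vehicle. At 48 h, 4 of 7 genes differed, each with the AS1842856 response above the 4-OHT response, where 37.1% of all tested genes differed and 18.0% in that direction. The contrast was 1.33 ± 0.21 for Slc5a9 (limma, adjusted p = 5.02e-04), 1 ± 0.2 for Hk2 (limma, adjusted p = 0.00225), 0.37 ± 0.11 for Slc2a1 (limma, adjusted p = 0.0188) and 0.32 ± 0.09 for Hk1 (limma, adjusted p = 0.0174). The Slc2a1 call was lost without AS1842856 replicate 3 (limma, adjusted p = 0.0502), and in 1 model of all 8 groups Slc5a9 and Hk2 alone passed. At 24 h, 1 of 7 differed, where 6.10% of all tested genes did. That gene was Slc5a9, at 1.92 ± 0.26 (limma, adjusted p = 9.58e-04), and it was 1.91 without the 2 AS1842856-arm libraries that stood apart. For Hk2 at 24 h the contrast of 0.61 ± 0.24 did not pass (limma, adjusted p = 0.168).

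Across the 8 groups the means of Slc5a9 spanned 2.67, against a pooled SD within groups of 0.25. The order of its group means was EtOH at 24 h (10.87), DMSO at 24 h (10.3), EtOH at 48 h (10.15), AS1842856 at 24 h (10.03), DMSO at 48 h (9.96), AS1842856 at 48 h (9.35), 4-OHT at 24 h (8.69) and 4-OHT at 48 h (8.21). Neighbours from DMSO at 24 h down to DMSO at 48 h overlapped, and every other pair of neighbours was separated. For Hk2 the means spanned 0.85 with a pooled SD of 0.23, EtOH at 24 h being highest (10.56) and 4-OHT at 48 h lowest (9.7). Its only separated neighbours were 4-OHT at 24 h and 4-OHT at 48 h. Slc2a6 spanned 0.65 (SD 0.16), with 4-OHT at 48 h highest (5.99) and separated from AS1842856 at 48 h (5.84), which was separated from the next, 4-OHT at 24 h (5.66). Slc2a1 spanned 0.49 (SD 0.3), and its only separated neighbours were 4-OHT at 24 h (10.04) and 4-OHT at 48 h (9.84). Txnip spanned 0.55 (SD 0.26), with separation between 4-OHT at 24 h (11.2) and EtOH at 24 h (11.04) alone. Hk1 spanned 0.37 (SD 0.14) and Slc2a3 0.34 (SD 0.17), and none of their neighbours were separated.

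Genes further down the same pathway, with some of its regulators, were mostly lower after 48 h of 4-OHT. A list of 27 genes of glycolysis, its regulators, lactate transport and the pyruvate dehydrogenase kinases held 21 tested genes. After 48 h of 4-OHT 13 of them were lower and 3 higher, where 25.8% of all tested genes were lower and 25.0% higher, and the median difference was -0.31 in the list and 0.005 over all tested genes. After 24 h 9 were lower and 1 higher, where 13.7% of all tested genes were lower and 15.7% higher, with medians of -0.05 in the list and -0.002 over all. At 24 h 2 were lower and 1 higher both in the authors' deposited test and in 1 model of all 8 groups. Eno1, the enolase, fell by 0.69 ± 0.05 at 48 h and fell by 0.27 ± 0.03 at 24 h. Ldha, which makes lactate, fell by 0.64 ± 0.05 at 48 h and fell by 0.36 ± 0.04 at 24 h. Pfkfb2 and Pfkfb3, which make the activator of phosphofructokinase, were among the 3 that rose at 48 h, by 0.32 ± 0.1 and by 0.15 ± 0.04, and Aldoc was the third. Of these 3, the authors' deposited test called Pfkfb2 alone, and 1 model of all 8 groups called Pfkfb2 and Aldoc. Without 4-OHT replicate 3, or without EtOH replicate 3, Pfkfb3 alone of the 3 passed. Several of these genes have near-identical pseudogenes, and how the authors' counting split such reads is not given in the sources used here.

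With AS1842856 at 48 h, 3 of the 21 genes were higher and 0 lower, where 1.88% of all tested genes were higher, and the median difference was 0.2. Pfkp, the platelet-type phosphofructokinase, measured 11.86, 11.88 and 12.09 with AS1842856, against 11.54, 11.39 and 11.56 with DMSO. With 4-OHT at 48 h it measured 11.2, 11.27 and 11.26, against 11.79, 11.78 and 11.84 with EtOH. It thus rose by 0.45 ± 0.08 with AS1842856 (limma, adjusted p = 0.0228) and fell by 0.57 ± 0.03 with 4-OHT (limma, adjusted p = 2.95e-06). The 2 responses differed by 1.01 ± 0.09 (limma, adjusted p = 6.84e-06). Aldoa, an aldolase, rose by 0.43 ± 0.1 with AS1842856 and fell by 0.4 ± 0.03 with 4-OHT, a contrast of 0.83 ± 0.11 (limma, adjusted p = 1.01e-04). Bsg, the chaperone of lactate carriers, rose by 0.21 ± 0.05 with AS1842856. The 3 AS1842856 calls depended on the libraries used: 11 genes were higher with the replicate block, 7 without DMSO replicate 1, and 0 in each of the fits without another single library. They also depended on the model and the filter. The authors' deposited test and 1 model of all 8 groups each called Pfkp and Gpi1 as higher, but not Aldoa or Bsg. Without the variance trend Pfkp alone passed, and without the filter on low values 0 did. None of the 21 passed at 24 h, when the median was 0.19.

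**Figure D4:**
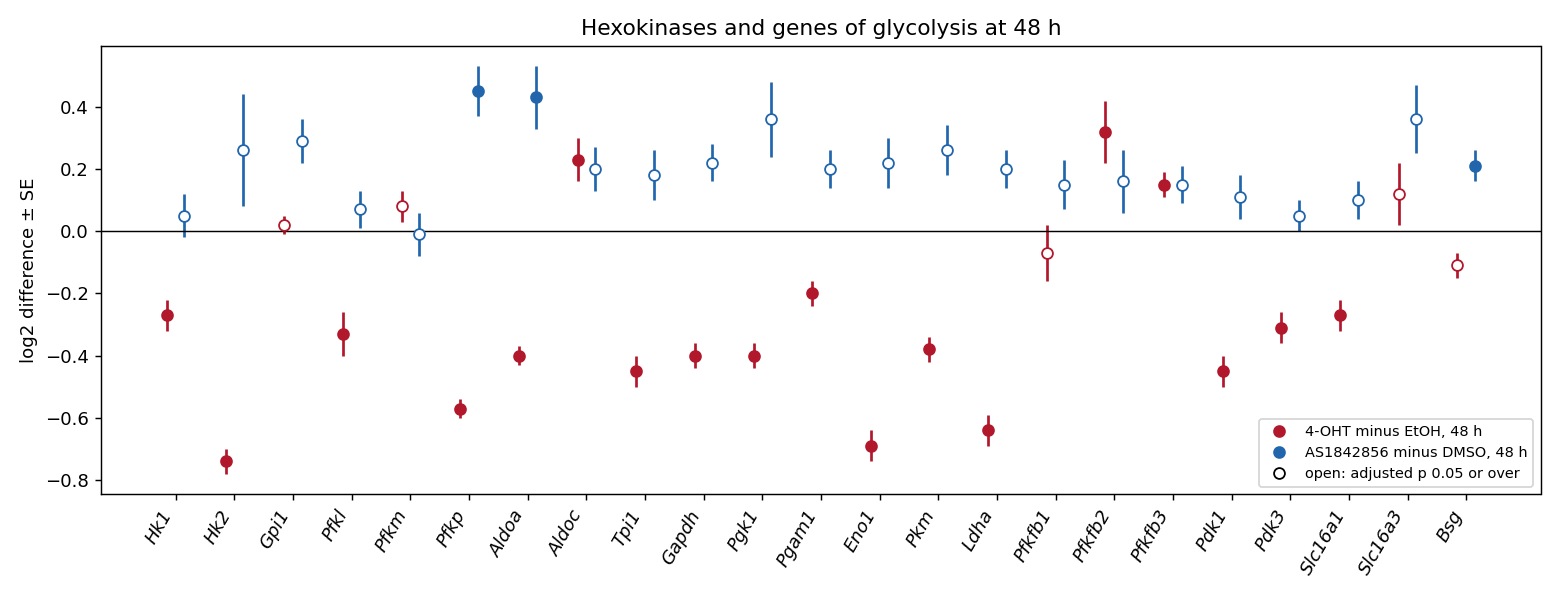
Difference in log2 value at 48 h with its SE for Hk1, Hk2 and the 21 tested genes of the glycolysis list. The list also holds regulators, lactate transport genes and pyruvate dehydrogenase kinases. Red is 4-OHT minus EtOH and blue is AS1842856 minus DMSO, filled where the adjusted p was under 0.05. For Pfkp and Aldoa the red point is filled below 0 and the blue point is filled above 0.

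Other sugar carriers were few. Of 9 further Slc2a genes 2 were tested, and Slc2a8 rose by 0.36 ± 0.13 after 48 h of 4-OHT and Slc2a9 by 0.16 ± 0.05 after 24 h. Of 12 further Slc5a genes 2 were tested. Slc5a3, the sodium-coupled inositol carrier, with 4-OHT fell by 0.44 ± 0.07 at 48 h and fell by 0.4 ± 0.06 at 24 h, and none of these genes passed with AS1842856. Among 12 genes that sort GLUT carriers between endosomes and the surface, 3 rose and 3 fell at 48 h of 4-OHT and 4 rose and 1 fell at 24 h, against 50.8% and 29.5% of all tested genes passing in either direction at these times. Vps26a, a retromer subunit, rose by 0.42 ± 0.04 at 48 h and by 0.22 ± 0.04 at 24 h.

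Other sugar kinases and phosphatases fell with Hk1 and Hk2 after 48 h of 4-OHT. Of 8 genes 3 were tested and 3 were lower, where 25.8% of all tested genes were: Adpgk, the ADP-dependent glucokinase, fell by 0.68 ± 0.12, Galk1, the galactokinase, fell by 0.45 ± 0.04, and G6pc3, a glucose-6-phosphatase, fell by 0.38 ± 0.07. None of the 3 passed at 24 h or with AS1842856. The 3 voltage-dependent anion channels, which dock hexokinases on mitochondria, were also lower at 48 h, with differences of -0.56 ± 0.04 for Vdac3, -0.23 ± 0.04 for Vdac2 and -0.17 ± 0.03 for Vdac1. At 24 h Vdac2 passed, at -0.16 ± 0.03.

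Around Txnip, the partners and relatives did not move in 1 direction. Of 6 other arrestin genes 5 were tested. Arrdc1 measured 9.32, 9.36 and 9.28 with 4-OHT at 48 h, against 8.86, 8.92 and 8.9 with EtOH, and rose by 0.42 ± 0.05. Arrb1 rose by 0.45 ± 0.11 and Arrdc3 fell by 0.21 ± 0.05, and none passed at 24 h or with AS1842856. Mlxip, which encodes MondoA, rose by 0.18 ± 0.06 at 48 h and fell by 0.19 ± 0.04 at 24 h of 4-OHT, and Mlxipl was too low to test.

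A list of 8 genes held thioredoxins, their reductases, peroxiredoxins and the inflammasome sensor Nlrp3. Of these, 6 were lower and 0 higher after 48 h of 4-OHT, where 25.8% of all tested genes were lower and 25.0% higher. After 24 h 2 were higher and 2 lower, where 15.7% of all tested genes were higher and 13.7% lower. With AS1842856 at 48 h 1 was lower, where 2.97% of all tested genes were. Nlrp3, which Txnip is known to bind, measured 6.6, 6.33 and 6.4 with 4-OHT, against 8.56, 8.9 and 8.69 with EtOH. It fell by 2.27 ± 0.11 at 48 h and fell by 1.62 ± 0.07 at 24 h. Txnrd3, a thioredoxin reductase, fell by 0.4 ± 0.04 at 48 h and fell by 0.18 ± 0.03 at 24 h of 4-OHT, and by 0.62 ± 0.08 at 48 h of AS1842856. Among 12 genes of Txnip turnover, 5 rose and 2 fell at 48 h of 4-OHT, where 50.8% of all tested genes passed, and 3 rose and 1 fell at 24 h, where 29.5% did. Prkaa2, a catalytic subunit of the AMP-activated kinase that marks Txnip for degradation, fell by 1 ± 0.06 at 48 h and fell by 0.54 ± 0.05 at 24 h, and Ddit4 rose by 0.34 ± 0.04 at 48 h and by 0.3 ± 0.06 at 24 h. Adjusted p-values in these pathway lists are from limma. None of the 12 passed with AS1842856.

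Regulators of the pathway were read last. Of 12 AKT and MYC pathway genes 3 rose and 2 fell at 48 h of 4-OHT, where 50.8% of all tested genes passed. At 48 h of AS1842856 0 rose and 4 fell, where 4.86% of all tested genes passed and 2.97% were lower. Myc, which encodes a transcription factor of growth and metabolism, measured 12.41, 12.4 and 12.37 with 4-OHT at 48 h, against 13.09, 13.04 and 13.03 with EtOH. It measured 12.04, 12.26 and 12.25 with AS1842856 at 48 h, against 12.8, 12.84 and 12.8 with DMSO. Myc fell by 0.66 ± 0.03 with 4-OHT and fell by 0.63 ± 0.07 with AS1842856. These responses of Myc differed by 0.03 ± 0.08, which did not pass (limma, adjusted p = 0.799). Mycn, of the same list, fell by 0.86 ± 0.03 at 48 h and by 0.64 ± 0.04 at 24 h of 4-OHT. At 48 h its AS1842856 response lay above its 4-OHT response by 0.66 ± 0.06 (limma, adjusted p = 1.22e-05). Of 9 tested hypoxia-pathway genes 6 rose and 2 fell at 48 h of 4-OHT, where 25.0% of all tested genes rose and 25.8% fell, and 5 rose and 2 fell at 24 h, where 15.7% rose and 13.7% fell. Hif1a, which encodes the oxygen-regulated subunit, fell by 0.45 ± 0.04, while Egln2, a prolyl hydroxylase, rose by 0.43 ± 0.04 and Vegfa by 0.24 ± 0.03.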

How the data were processed

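RNA sequencing was analysed from the authors' 4 deposited tables, 1 for each treatment comparison. The tools named per the submitters' processing notes are DESeq2 1.44.0, Salmon 1.1.1 and STAR 2.7.11b, with the build mm10; how strand was handled in counting is not given in the sources used here. Library columns hold log2 expression values normalised by the authors; the headers leave the transformation unnamed. The tables also hold the authors' log2 fold change, a test score, and raw and adjusted p-values, which per the file headers are the authors' own. The values are not counts, so no counting error is given. Library medians over tested genes were 9.16 to 9.23, and no 2 libraries lay nearer than a root mean square difference of 0.144.

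Groups came from the labels. Of 41444 genes 20000 had values, and 11470 passed a filter on the authors' mean log2 value. The filter was set at a normalised count of 10, with that value read as log2 of the count plus 1. That reading is an assumption, since the transformation is unnamed. The 11470 genes were tested with limma 3.58.1 (R 4.3.3), using a trended variance and the 2 groups of each comparison. Contrasts used 1 model of 4 groups. P-values were two-sided and, in each of 12 comparisons, adjusted over all tested genes (Benjamini-Hochberg). Set members, pathway lists and tests were chosen with earlier results of these data known. All 9 genes are named, and up to 3 passing genes of each list and comparison. Pfkfb2, Pfkfb3, Aldoc, Gpi1, Ldha at 48 h, and the contrasts of Pfkp, Aldoa, Myc and Mycn were chosen after their values were seen.

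Same-numbered libraries of AS1842856 and DMSO at 48 h deviated together (r = 0.41, 0.25 and 0.15), so a replicate block was added there. These r run across genes, which are not independent replicates. Differently numbered libraries there had r from -0.31 to 0.18, so replicates 2 and 3 were not clearly paired by number. At 24 h same-numbered libraries of that arm had r = 0.46, -0.34 and -0.19. Differently numbered libraries at 24 h had r from -0.32 to 0.51, the highest for AS1842856 replicate 3 with DMSO replicate 2. The labels state no pairing. The test was checked on simulated data with 200 changed genes, each gene drawn independently of the others. Promoters were RefSeq windows of 300 bases, searched on both strands. Python 3.11.15 with matplotlib 3.10.9 made the figures. Alternatives were the filter, the variance model, centring, 1 model of all 8 groups, the block, leaving out each library, and the authors' deposited test.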

Additional observations from a re-analysis of the deposited data

Results flagged for a closer look

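The response of Slc2a1 to 4-OHT differed between times by the test of that difference, at -0.21 ± 0.06 for 48 h minus 24 h (limma, adjusted p = 0.0204); its difference was -0.25 at 48 h and -0.03 at 24 h.

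The responses to AS1842856 and to 4-OHT, each against its own vehicle, differed for 4 genes at 48 h. AS1842856 minus 4-OHT was 1.33 for Slc5a9, lower in 3 of 3 libraries of each treatment than in any vehicle library of its arm. It was 1.0 for Hk2, 0.37 for Slc2a1 and 0.32 for Hk1, which were lower than EtOH in 3 of 3 4-OHT libraries and overlapped DMSO in AS1842856 libraries. At 24 h it was 1.92 for Slc5a9, and the AS1842856 and DMSO libraries overlapped there. No cause was tested.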

How the results depend on the processing

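Fitting 1 model of all 8 groups, which shares the larger spread of the AS1842856 arm with all groups, left fewer of the 7 genes called: 4 for 4-OHT against EtOH at 48 h, 2 at 24 h, 0 for 4-OHT between times, 1 for EtOH between times, 0 for the 4-OHT response between times and 2 for AS1842856 minus 4-OHT at 48 h. It called 1 for AS1842856 against DMSO at 48 h and 1 for AS1842856 between times. The authors' deposited test called 4 for 4-OHT and 1 for AS1842856 at 48 h. The replicate block called 2 for AS1842856 at 48 h, 2 for the 4-OHT response between times and 2 for AS1842856 minus 4-OHT at 24 h. It also took the 4-OHT calls of Slc2a6 at 24 h (adjusted p = 0.0618) and between times (adjusted p = 0.0595), where numbers did not pair. Leaving out 1 library gave 0 to 3 calls for AS1842856 at 48 h, 0 to 1 for AS1842856 between times and 0 to 2 for the 4-OHT response between times. It turned the sign of 4 uncalled differences: Hk1 with AS1842856 at 48 h (-0.02 to 0.09), Hk2 with AS1842856 at 24 h (-0.17 to 0.23), Slc2a1 in AS1842856 between times (-0.20 to 0.28) and Txnip in DMSO between times (-0.12 to 0.33). Another 62 sign changes stayed within 1 SE of differences called in neither fit. Over all tested genes, AS1842856 at 48 h called 557, against 1629 with the block, 1220 in 1 model of 8 groups, 1505 in the authors' deposited test, 205 without the filter and 108 to 901 without 1 library. The causes of these shifts were not tested. Dropping the 2 AS1842856-arm libraries that stood apart at 24 h, chosen after seeing the data, changed no call among the 7 genes, but for AS1842856 minus 4-OHT at 24 h it gave 1655 calls over all tested genes, against 700, and 3 in the glycolysis list (Pfkp, Slc16a1 and Eno1), against 0. Without the filter on low values the calls of Txnip for 4-OHT at 48 h and for EtOH between times, and of Slc2a6 for 4-OHT at 24 h and between times, were lost (adjusted p from 0.0801 to 0.153). Without the variance trend both Txnip calls were lost (adjusted p = 0.0679 and 0.0509). Centring, or testing the upper part of the genes by mean, added Hk2 for EtOH between times (adjusted p = 0.0267 and 0.0427). Depth is unknown, so what it limits could not be stated.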

Other observations

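The genes whose values across the 24 libraries were most like those of each set member are given as a description; the libraries share groups, so Pearson's r has no p here. For Slc5a9 they were Ube2o (r = 0.95), Megf10 (0.94) and Gpr125 (0.93). For Hk2 they were Slc20a1, a phosphate carrier (r = 0.89), Tmem201 (0.88) and Pfas, an enzyme of purine synthesis (0.88). For Slc2a6 they were H2-Eb2 (r = 0.89), Zcchc18 (0.88) and Pea15a (0.87), and for Txnip Npc2, a lysosomal cholesterol carrier (0.87), Scube3 (0.87) and Tmem86a (0.86). For Hk1 they were Sla (r = 0.84), Plek (0.83) and Gys1, the glycogen synthase (0.82). The likest genes were less alike for Slc2a1, with Ppme1 at r = 0.83, Apold1 at 0.79 and Ak4 at 0.77, and for Slc2a3, with Lcp2 at 0.78, Chsy1 at 0.76 and Dnajc10 at 0.75.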
